A study of Mus musculus with 48 samples.

Results

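The activity of 11376 reporter elements was compared between E15 and E14 in intermediate progenitors (IPC) of the mouse somatosensory cortex, out of 11709 elements in the deposited table. Elements were included if they had a value at both ages, and 333 did not. The measurement was a massively parallel reporter assay, which puts a large set of short DNA elements into plasmids and sets the RNA driven by each against its plasmid DNA in the same cells. Plasmids were electroporated in utero at E13 or E14 into C57BL/6JRj (Haplotype H2b) embryos, and cortices were taken 24 h later, at E14 or E15. After fixation, cells positive for Tbr2 (the protein of the gene Eomes) were sorted as IPC. Both ages had 3 biological samples with DNA and RNA libraries, 12 libraries in all. The 2 groups differed in age by label, with no other treatment or genotype. Other groups serve for comparison below. IPC and neural stem cells at E13, E16 and E17 had 2 biological samples each, electroporated at E12, E15 and E16. Neural stem cells at E14 and E15 had 3 each, electroporated at E13 and E14. The sources used here do not say whether samples came from separate litters. Endogenous transcripts were not part of the table, so the sorted identity could not be checked against marker genes.

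Intermediate progenitors arise from radial glia, the neural stem cells (NSC) of the ventricular zone. They divide in the subventricular zone to produce most of the excitatory neurons of the cortex. Deep-layer neurons are born before upper-layer neurons, and E14 and E15 lie around the change from one to the other. A reporter assay places every element in the same plasmid context, so it reads what an element's sequence can drive in the cell and not the state of its own locus.

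The elements carried 6 class names. Those with both values comprised 921 of 931 named E14, 2914 of 2991 named IPC, 3034 of 3125 named NSC, 2643 of 2763 named Mature, 884 of 903 named Shadow and 980 of 996 scrambled controls. The E14 class is a name in the table and is kept apart from the age E14 throughout. The sources used here do not explain the class names. The authors combined the biological samples into 1 value per element and age. The spread between samples is therefore unknown, no test across samples was possible, and the depth behind each value is unknown. The scrambled controls stand in as the measure of spread. Activity is given as log2 of the ratio to the scrambled median of the same age, with a pseudocount of 0.1, minus the scrambled mean. The limits used below each leave 2.5% of the scrambled controls outside. They were 1.52 for activity at E14, 2.33 for activity at E15, and -2.09 and 2.78 for E15 minus E14.

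Names of E14-class elements carry mm10 coordinates, but the letters of the elements were not in the files. Of the 901 such elements that may be named here, 22 overlapped a promoter window of RefSeq (GRCm38.p6, 250 bases before to 50 after a start site). Of these, 1 was above the upper limit for E15 minus E14 and 2 were below the lower limit. In the whole E14 class 2.28% were above and 5.32% below, and the counts among 22 are too small to be told from those shares. The stretches shared by those 3 elements and the windows are printed below. The stretch at Arvcf is added because its element had the highest E15 value of the overlapping elements within the limits. Both it and Bcan were chosen after their values were seen. Each is cut to the bases before the start site and written 5′ to 3′ on the strand of the gene. Capitals mark matches on either strand to CAGATG or CAGCTG (E-boxes), TTGGCA (an NFI motif) and ACAAAG (SOX). Searches for TAATTA (homeodomain), ATTTGCA (POU), TGACTCA (AP-1) and GGTGTGA (T-box) found no match in these 4 stretches.
Gm51927, within the span of Slc39a11 (chr11:113308715-113308857, + strand, lower at E15): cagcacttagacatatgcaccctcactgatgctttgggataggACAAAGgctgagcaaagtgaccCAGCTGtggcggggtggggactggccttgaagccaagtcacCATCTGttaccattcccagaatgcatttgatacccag
Bcan (chr3:88000357-88000563, - strand, lower at E15): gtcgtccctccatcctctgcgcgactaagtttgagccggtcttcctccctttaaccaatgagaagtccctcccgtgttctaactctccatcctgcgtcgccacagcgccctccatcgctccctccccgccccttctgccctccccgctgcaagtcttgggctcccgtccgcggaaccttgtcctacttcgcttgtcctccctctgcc
Calr4 (chr4:109235057-109235261, + strand, higher at E15): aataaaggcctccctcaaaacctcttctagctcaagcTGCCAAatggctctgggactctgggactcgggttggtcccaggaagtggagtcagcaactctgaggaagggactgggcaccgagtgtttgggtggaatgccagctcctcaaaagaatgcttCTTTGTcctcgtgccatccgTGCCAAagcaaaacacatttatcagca
Arvcf (chr16:18380560-18380782, + strand, within the limits): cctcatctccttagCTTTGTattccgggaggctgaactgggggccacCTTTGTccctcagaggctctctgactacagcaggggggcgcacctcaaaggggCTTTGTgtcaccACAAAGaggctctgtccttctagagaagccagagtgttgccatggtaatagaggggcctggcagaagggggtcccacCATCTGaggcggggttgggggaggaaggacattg

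The element holding the Gm51927 window stood at 5.37 at E14 and 0.12 at E15, a difference of -5.24. That at Bcan, which encodes the brain matrix proteoglycan brevican, stood at 0.98 and -3.30, a difference of -4.28. The value at E14 was thus within the scrambled range, and the difference came from the low value at E15. That value is near the low end set by the pseudocount, where the statistic is close to 0. The Bcan element had no value in IPC at E13 and E16, or in neural stem cells at E15. It stood at 2.35 in IPC at E17 and at -3.41 in neural stem cells at E14. The element at Calr4, a calreticulin family gene, stood at -0.91 and 2.69, a difference of 3.60. That at Arvcf, a catenin family gene, stood at 0.85 and 1.79. The G and C share of the stretches was 52.4% for Gm51927, 62.3% for Bcan, 52.2% for Calr4 and 58.3% for Arvcf. The median over the same positions of 32851 promoter windows was 51.0%, 52.7%, 52.7% and 52.5%. The CAGATG motif of the Gm51927 stretch occurred in 8.52% of all windows at the same positions, and that of the Arvcf stretch in 13%. CAGCTG occurred in 7.18% at the positions of the Gm51927 stretch, and TTGGCA, present 2 times in the Calr4 stretch, in 9.80%. ACAAAG was present 4 times in the Arvcf stretch and occurred in 14.7% of windows. Its single matches at Gm51927 and Calr4 had shares of 9.92% and 13.6%. These matches are of letters only, and 4 stretches cannot relate a motif to the direction of a difference.

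E14-class and IPC-class elements stood above the scrambled controls at both ages, and the other classes stood near them. At E14 the E14 class averaged 0.42 ± 0.03 (SE over 921 elements) and at E15 0.33 ± 0.04. The IPC class averaged 0.19 ± 0.02 at E14 and 0.20 ± 0.02 at E15 (SE over 2914 elements). The NSC class, whose elements carry the name of the parent cells, averaged 0.03 at both ages. The Mature class averaged 0.02 and 0.05, the Shadow class 0.08 and 0.00, and the scrambled controls 0.01 and 0.00. The order of the E14 and IPC classes above the rest was thus the same at both ages. Medians gave the same leading classes, at 0.30 and 0.29 for the E14 class and 0.15 and 0.13 for the IPC class.

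No class as a whole moved far from the scrambled controls between the ages. The mean of E15 minus E14, less that of the scrambled controls, was -0.07 ± 0.06 for the E14 class and 0.02 ± 0.05 for the IPC class. It was 0.00 ± 0.05 for the NSC class, 0.04 ± 0.05 for the Mature class and -0.07 ± 0.06 for the Shadow class (SE over elements of both groups). The largest of these means in size were little more than their own errors. The errors hold no spread between embryos, and the result does not show that the classes were unchanged. The E14-class value depended on the scale. It was -0.21 ± 0.06 in units of the scrambled SD of each age, and -0.72 ± 0.21 as a difference of the authors' MAD scores, which count scaled median absolute deviations from the scrambled median. The scrambled SD was 0.77 at E14 and 1.03 at E15, so the same log2 activity weighs less on those scales at E15.

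The labels asc, desc and unc in element names did not separate elements by the difference between these ages. The sources used here do not give their meaning. In the IPC class, the mean difference less that of the controls was 0.00 ± 0.06 for 712 asc, 0.07 ± 0.05 for 1100 desc and -0.02 ± 0.06 for 1102 unc elements. In the NSC class it was -0.02, 0.03 and 0.00 for 1110, 1043 and 881 elements, and in the Mature class 0.04, 0.03 and 0.05 for 301, 1087 and 1255. All 9 means lay between -0.02 and 0.07. In level, the unc elements of the IPC class were the highest of the 9 groups at both ages, at 0.27 ± 0.03 at E14 and 0.24 ± 0.03 at E15. The asc elements of that class stood at 0.15 and 0.13 and the desc elements at 0.14 and 0.19. At E15 the unc and desc elements lay within their errors of each other.

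Single elements differed between the ages slightly more often than the controls, with a direction that depended on the limit. Of 10396 non-scrambled elements, 325 (3.13%) were above the upper limit for E15 minus E14 and 511 (4.92%) were below the lower limit, 836 (8.04%) in all. By construction 2.55% of the controls lay beyond each. With limits leaving 0.5% of the controls the order turned, to 120 higher (1.15%) and 106 lower (1.02%), and in the Mature class to 50 higher and 28 lower. Elements above the upper limit made up 2.28% of the E14 class (21 elements), 2.95% of the IPC class (86), 2.80% of the NSC class (85), 4.12% of the Mature class (109) and 2.71% of the Shadow class (24). Of these, the Mature class was the one whose 95% Wilson interval, 3.43 to 4.95%, lay above 2.55%. Among elements with a value in IPC and neural stem cells at all 5 ages, the upper share fell to 2.70% over all non-scrambled elements (267). In the Mature class it fell to 3.45% (85). The lower share over all non-scrambled elements was then 4.98% (492). Elements below the lower limit made up 5.32% of the E14 class (49), 4.77% of the IPC class (139), 4.42% of the NSC class (134), 5.45% of the Mature class (144) and 5.09% of the Shadow class (45). The lower shares did not differ between classes beyond their intervals, which ran from 3.74 to 6.96% over the 5 classes. The intervals cover the sampling of elements only, not the uncertainty of the limits, which rest on 980 controls. On the authors' MAD scores the E14 class had 108 elements below the lower limit (11.7%) and 25 above, and by percentile among the controls 31 (3.37%) and 21.

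More elements stood clear of the controls at E14 than at E15. At E14, 615 non-scrambled elements (5.92%) were above the upper limit for activity, and at E15 390 (3.75%). In the E14 class the shares were 15.2% (140 elements) and 5.32% (49), and in the IPC class 7.45% (217) and 3.81% (111). The NSC class had 3.36% and 2.83%, the Mature class 4.39% and 4.31%, and the Shadow class 4.52% and 3.39%. The limit was wider at E15, and the class means did not differ in the same proportion as these shares. By the authors' own adjusted p under 0.05, which counts from the scrambled median, the E14 class had 23.7% at E14 and 23.1% at E15. That threshold took in 11.2% and 14.9% of all non-scrambled elements, and 6.53% and 11.1% of the scrambled controls themselves.

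Elements above the limit at both ages were rare, and their share was highest in the E14 class at these limits. They numbered 58 of 10396 (0.558%), against 4 of 980 controls (0.408%). The E14 class held 22 of the 58 (2.39% of its elements, Wilson interval 1.58 to 3.59) and the IPC class 20 (0.686%, 0.445 to 1.06). The NSC and Mature classes held 6 each and the Shadow class 4. With limits leaving 5% of controls the E14-class share at both ages was 4.99% (46 elements). It was then 1.85% in the IPC class, 1.30% over all non-scrambled elements and 0.714% in the controls. The order was lost with limits leaving 0.5% of controls, where only 4 elements passed at both ages, 0 of them in the E14 class and 2 in the IPC class. The E14-class share above that limit at E15 was 0.109%, against 0.51% of controls. Of the 140 E14-class elements above the limit at E14, 22 (15.7%) were above it at E15, and of the 49 above it at E15, 44.9% were above it at E14. In the IPC class the shares were 9.22% of 217 and 18.0% of 111, in the NSC class 5.88% of 102 and 6.98% of 86. Among the controls 4 of 25 (16%, Wilson interval 6.4 to 34.7) in either direction passed at the other age. The share of E14-class elements that passed again at E15, with an interval of 10.6 to 22.6%, was no higher than that of the controls. In the other direction the E14-class share of 44.9% was above the control interval. The control share rests on 4 elements. By the authors' adjusted p at both ages, 10.5% of the E14 class (97 elements), 4.26% of the IPC class (124), 3.05% of all non-scrambled elements (317) and 1.02% of controls (10) passed. Across elements, the rank correlation of E14 with E15 was 0.31 in the E14 class, 0.17 in the IPC class, 0.07 in the NSC, Mature and Shadow classes alike and 0.11 in the controls. Elements of a class share the same libraries at each age.

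The other IPC ages, which come from separate libraries, were used to see whether these elements stood high elsewhere. E14-class elements above the limit at both ages had median activities of 2.90 at E13, 1.07 at E16 and 1.12 at E17 (22 elements). Those above it at E14 alone had 2.22, 0.87 and 1.24 (118 elements). Those above it at E15 alone had 0.16, 0.37 and -0.19 (27 elements), beside -0.10, 0.35 and 0.37 for all E14-class elements not above both limits. The mean of E13, E16 and E17 was above 0 for 20 of 22, 96 of 115 and 14 of 24 of these elements, against 567 of 879. In the E14 class, elements high at E14 thus tended to be high at the other ages, while those high at E15 alone were near the rest of the class. In the IPC class the mean of the other ages was above 0 in 133 of 188 elements high at E14 alone and in 42 of 79 high at E15 alone, beside 61.6% of its elements not above both limits. In the Mature class the counts were 37 of 98 and 48 of 93, beside 49.7%, and in the NSC class 39 of 83 and 43 of 71, beside 53.1%.

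Elements with a large difference between E15 and E14 showed no like change over the other IPC ages. For the 325 non-scrambled elements above the upper limit, the mean of E16 and E17 minus E13 had a median of -0.04 and was above 0 in 132 of 269 elements with values (49.1%, Wilson interval 43.2 to 55.0). For the 511 below the lower limit it was 0.17 and above 0 in 249 of 445 (56.0%, 51.3 to 60.5). For the elements between the limits it was 0.20 and above 0 in 56.8%. Of those 9560 elements, 9337 had values at E13, E16 and E17, a larger share than among elements beyond either limit. In neural stem cells at the same ages, E15 minus E14 had a median of -0.09 in the first set and -0.23 in the second, against 0.02 between the limits. The elements higher at E15 in IPC thus had no higher share above 0 in either measure than the rest. Those lower at E15 in IPC were also lower at E15 in NSC somewhat more often, being above 0 in 42.7% (38.4 to 47.1) against 50.8%. The 25 controls below the lower limit were above 0 in 44% (26.7 to 62.9), an interval that holds both shares. By class the share ran from 36.6% in the Mature class to 57.4% in the E14 class.

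Elements picked by their activity at E13, E16 and E17 allow E14 and E15 to be compared without using either in the choice. The mean of those 3 ages exceeded 1.27, the limit of 2.5% of controls, in 829 of 10051 non-scrambled elements (8.25%). In the E14 class 156 of 901 did so (17.3%), with a mean of 1.34 at E14 and 1.05 at E15, a difference of -0.29 ± 0.09 (SE over elements) that was above 0 in 59 of the 156. In the IPC class 317 elements stood at 0.68 and 0.69, a difference of 0.00 ± 0.07, which became -0.22 ± 0.08 when divided by the scrambled SD of each age. In the NSC class 167 elements stood at 0.07 and 0.41, a difference of 0.34 ± 0.11, above 0 in 95. The difference was 0.26 ± 0.13 for 134 Mature and 0.51 ± 0.20 for 55 Shadow elements. The 25 controls picked the same way stood at -0.12 and 0.34, a difference of 0.46 ± 0.32. The NSC, Mature and Shadow differences lay within the error of the controls, while the E14-class difference lay on the other side of 0 from theirs. These errors are over elements and hold no spread between samples, and 25 controls give a wide reference. The values describe the elements and are not a test between the ages. This selection was added after values had been seen.

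The 10 E14-class elements with the largest differences towards E15 lay within or near genes of several kinds. They were taken from the 20 elements above the upper limit that also had the authors' adjusted p under 0.05 at E15. An element within Robo2, a receptor for axon guidance by Slit proteins (chr16:74582817-74583082), went from -1.76 at E14 to 2.82 at E15. An element within Rtn1, an endoplasmic reticulum protein gene of neurons (chr12:72285471-72285736), went from -1.32 to 3.23. One 240 kb from B3gat1, which makes the HNK-1 carbohydrate (chr9:26493845-26494110), went from -1.34 to 2.94. Each of these stood below the scrambled mean at the earlier age and above the limit at the later one.

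One 0.636 kb from Lamp5, a brain member of the lysosomal membrane protein family (chr2:136051124-136051389), went from 0.20 to 4.35, the highest E15 value of the 10. It was also high at E13, at 4.08, and stood at -1.88 at E16. In NSC it stood at 3.65, 3.39 and 0.15 at E13, E14 and E15, so its difference between E14 and E15 had the opposite direction there. One within Rfx4, a transcription factor gene of neural progenitors (chr10:84859224-84859489), went from -2.10 to 1.96. One 63.8 kb from Hes1, the Notch target that holds progenitors undifferentiated (chr16:30001301-30001566), went from -0.29 to 3.61. The element near Hes1 was high in some other columns, at 2.18 in IPC at E17 and at 2.95 and 2.73 in NSC at E14 and E15. In NSC it therefore stood high at both E14 and E15. In IPC it stood at 1.38 at E13 and 0.19 at E16, and in NSC at 2.33, -1.16 and -0.28 at E13, E16 and E17. The remaining 4 lay at Calr4 (given above), 0.243 kb from Il31ra (chr13:112580975-112581240, from -0.37 to 3.18), 24.1 kb from Ptpdc1 (chr13:48553504-48553769, from -0.43 to 3.09) and within Rabgap1l (chr1:160350394-160350659, from -1.39 to 2.08). E15 was the highest of the IPC ages with a value in all 10, which were chosen for a high E15 value. The Robo2 element had no value at E16. The elements at Rfx4 and Rabgap1l did not exceed the activity limit of 2.33 at E15, and on the MAD scores their differences were within the limits. The mean of E16 and E17 exceeded E13 in 5 of the 9 with values, and NSC was higher at E15 than at E14 in 5 of 10.

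Towards E14, the largest difference was that of the Slc39a11 element, within a zinc transporter gene (chr11:113308592-113308857). Its statistic was 44.3 times the scrambled median at E14 and 1.16 times at E15. In IPC its activity was 6.83 at E13 and 5.37 at E14, then 0.12, 0.39 and 0.22 over the 3 later ages. Both earlier ages were thus far above all 3 later ones. In NSC it stood at -1.68 at E14 and 2.32 at E15, the opposite direction, each a single value.

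The other 9, taken from 39 elements below the lower limit with the authors' adjusted p under 0.05 at E14, were highest at E14 among the IPC ages with a value, E16 being absent for the Pter element. They were chosen for a high E14 value. An element within Kit, a receptor tyrosine kinase gene (chr5:75605858-75606123), went from 2.67 to -2.42. One 17.1 kb from F3, the tissue factor gene (chr3:121706217-121706482), went from 1.64 to -2.06. These 2 stood at -0.45 and -1.39 at E13, so that of E13, E14 and E15 their high value was that of E14. An element within Tcf7l2, a transcription factor gene of the Wnt pathway (chr19:55838081-55838346), went from 2.24 to -1.22. One within Nav1, a neuron navigator gene (chr1:135572551-135572816), went from 2.20 to -1.37, with 2.38 and -0.85 in NSC at the same ages. Others lay 121 kb from Cdkn3 (from 2.30 to -1.32), 1.62 kb from Umad1 (from 2.498 to -1.08), within Pter (from 2.51 to -0.86) and within Tanc1 (from 2.09 to -1.14). Of the 10, the mean of E16 and E17 lay below E13 in 5 of 9 with values, and NSC was lower at E15 in 6 of 10. In neither direction did the other columns follow the difference in more than 6 of 10 elements.

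The 22 E14-class elements above the limit at both ages were set against the other IPC ages. Of these, 18 were above the scrambled mean at E13, 16 at E16 and 18 at E17, and 12 at all 3. The difference E15 minus E14 ran from -0.79 to 1.70 with a median of 0.52, and was above 0 in 16. The choice itself favours values above 0, since the limit was 1.52 at E14 and 2.33 at E15. All were within the limits for the log2 difference. On the MAD scores the Sox11, Sdc3, Dpysl5 and Ptk2 elements described next were beyond a limit. In position, 17 of the 22 (77.3%, Wilson interval 56.6 to 89.9) lay inside a protein-coding gene's span, against 505 of all 901 (56.0%, 52.8 to 59.3). Exons and introns were not distinguished here. The share was 52.4% for the 21 elements higher at E15 and 62.5% for the 48 lower at E15, both with intervals that hold 56.0%.

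Of these, 5 were named for the highest mean of both ages. An element within Cyria, which encodes a Rac1-binding protein (chr12:12274163-12274428), stood at 3.17 at E14 and 3.58 at E15. One 496 kb from Sox11, a transcription factor gene of neuronal differentiation (chr12:27838484-27838749), stood at 2.35 and 3.66. One within Sdc3, the syndecan-3 gene (chr4:130805046-130805311), stood at 3.03 and 2.92. It was above the controls at each of the other IPC ages too, at 4.81, 1.32 and 1.79. One within Dpysl5, a gene of the CRMP family active in axon growth (chr5:30738107-30738372), stood at 3.13 and 2.70, and at 4.78, 1.20 and 1.64 at the other ages. In NSC at E14 and E15 these 2 were lower, at 0.24 and 1.02 for Sdc3 and at 0.38 and 0.75 for Dpysl5. The fifth, within Ptk2, the focal adhesion kinase gene (chr15:73360346-73360611), stood at 2.39 and 3.42 but at -1.36, -1.76 and 5.95 at E13, E16 and E17. Its other ages thus lay on both sides of the scrambled mean.

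Genes of cortical development, in 6 lists, were matched to E14-class elements within or nearest to a gene. They met 55 elements at 35 genes, of which 3 were above the upper limit for the difference, 1 was below the lower, and the rest were within. In the whole E14 class 2.28% were above and 5.32% below, so these counts are near the background. The median difference over the 55 was 0.05, beside -0.13 over the E14 class. The lists were chosen with earlier results of these data known, so their levels are a description and not support. Elements at neuronal differentiation genes were the most active of the lists. Their 8 elements had medians of 1.74 at E14 and 1.43 at E15, and 5 were above the limit at E14, 2 at E15, beside 15.2% and 5.32% of the whole class. An element 7.93 kb from Neurod2, a bHLH factor of young neurons (chr11:98317219-98317484), stood at 1.72 and 2.20, and a second Sox11 element (chr12:27669624-27669889) at 1.75 and 2.27. An element within Rbfox3, the gene of the neuronal splicing factor NeuN (chr11:118745382-118745647), stood at 1.78 and 0.61. None of the 8 was beyond a limit for the log2 difference, but on the MAD scores the Sox11 element 496 kb away was above the upper limit and those at Dpysl5 and Rbfox3 just named were below the lower. In this list a nearest gene can be far off, as for Sox11.

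Elements at NSC or radial glia genes were mostly near the controls in IPC. Their 17 elements had medians of -0.23 at E14 and 0.00 at E15. Apart from that near Hes1, an element 4.60 kb from Mfng, a glycosyltransferase gene acting on Notch (chr15:78751017-78751282), stood at 3.06 and 1.62, within the limits for the difference but below the lower one with a pseudocount of 1 or on the MAD scores. One of 5 elements within Pax6, the transcription factor gene of radial glia (chr2:105686827-105687092), stood at 1.82 and 2.45, and the other 4 lay between -0.32 and 0.69 at E14. Elements at IPC genes numbered 4. One 1.74 kb from Eomes, the gene of the sorting marker Tbr2 (chr9:118476184-118476449), stood at 1.08 and 0.84, within the limits at both ages, and is named outside the rule for the sorting marker. One 1.13 kb from Rnd2, a small GTPase gene of migrating neurons (chr11:101472982-101473247), went from -2.504 to 1.11. Its difference of 3.62 was above the limit, although neither value exceeded the limit for its age. With a pseudocount of 1, or on the MAD scores, it was within the limits. The Rnd2 element's statistic at E14 was 0.09 times the scrambled median, below the pseudocount of 0.1. The element had no value in IPC at E13, or in NSC at E13 and E15.

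Layer and temporal genes gave no common direction. The 3 elements at the deep-layer genes Foxp2 and Sox5 had differences of -0.38 to 0.91. The 9 at upper-layer genes had a median difference of 0.58 and ran from -2.64 to 2.44, with 6 above 0. The 4 near Pou3f3, a POU factor gene of upper-layer neurons, ran over nearly the same range, from -2.64 to 2.19. One of them (chr1:42253858-42254123) went from 1.31 to -1.33 and was below the lower limit. Among the 14 elements at temporal or gliogenic genes the median difference was -0.39. One within Nfia, a transcription factor gene of the onset of gliogenesis (chr4:97669871-97670136), went from 0.18 to 3.60 and was above the upper limit. Its IPC value at E16, -3.28, was at the low end set by the pseudocount, where the statistic is close to 0. The other 3 Nfia elements had differences of -1.68, 0.26 and 0.95. An element within Hmga2, a chromatin protein gene of early progenitors (chr10:120387135-120387400), stood at 2.09 and 1.482, a difference below the lower limit on the MAD scores alone.

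Neural stem cells of the same ages also gave small class differences. Their signs were opposite to those in IPC for the E14 and Mature classes. Mean E15 minus E14 in NSC was 0.01 ± 0.04 for the E14 class and 0.04 ± 0.02 for the IPC class. It was -0.01 ± 0.03 for the NSC class, -0.05 ± 0.03 for the Mature class and 0.00 ± 0.05 for the Shadow class. The change of this difference from NSC to IPC, over elements with all 4 values, was -0.09 ± 0.06 for the E14 class, 0.09 ± 0.04 for the Mature class and -0.01 ± 0.05 for the controls. It was -0.02 ± 0.03 for the IPC class, -0.01 ± 0.03 for the NSC class and -0.08 ± 0.06 for the Shadow class (SE over elements). The same E14-class coordinates recur in the Shadow class in 815 pairs with values at both ages. The E14-class member was higher by 0.35 ± 0.05 at E14 and by 0.35 ± 0.06 at E15 (SE over pairs), in 494 and 488 of the pairs. The gap between the members changed by 0.00 ± 0.07 between the ages.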

How the data were processed

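The deposited table has 3 columns per cell type and age, 30 in all, and each merges the biological samples. The build mm10 and cutadapt, without a version, come from the submitters' processing notes. No source used here gives the steps from reads to values. The deposited activity statistic and MAD score were treated as scores, since per the file headers no unit is named. The authors' p-value is, as checked on the values, the upper-tail normal p of the MAD score after Benjamini-Hochberg adjustment within a column. Scrambled medians of the statistic were 1.59 at E14 and 0.556 at E15, so values were scaled within each age. Log2 values near the pseudocount of 0.1 are compressed. Python 3.11.15, numpy 2.4.6, pandas 2.3.3 and scipy 1.17.1 were used. The counting was tested on data simulated by resampling the same controls and adding known shifts, which checks the code and not the calls.

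No test across samples was made, since each age has 1 combined value. Wilson intervals are at 95%. Elements were named by rule: the 10 largest differences each way among E14-class elements beyond a limit with the authors' adjusted p under 0.05 at the higher age, the 5 highest above both limits, and list genes beyond a limit. Elements on chromosome 18 are counted, not named. One further element that the rule selects is counted but not reported here. Members, lists and rules were chosen with earlier results of these data known. Genes are the protein-coding span holding an element, or else the nearest of 21900 in RefSeq GRCm38.p6. Whether coordinates count from 0 or 1 is not given, so a printed stretch may be off by 1 base. Element GC and motif shares were not computed, since a genome was not used here.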

Additional observations from a re-analysis of the deposited data

How the results depend on the processing

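No paired analysis was possible because the files hold 1 combined value per cell type and age, so neither a replicate block nor leaving out a replicate could be fitted. Divided by the scrambled SD, the difference was -0.21 for the E14 class, -0.0434 for the IPC class, -0.00238 for the NSC class, -0.0161 for NSC unc elements and -0.22 for IPC elements active at the other ages. As MAD scores it was -0.72, -0.0977 and -0.0603 for the E14, IPC and NSC classes. The cause was not tested. Pseudocounts of 0.01, 0.5 and 1, medians, leaving out the outer 5%, median centring, percentiles and both filters kept the class differences they were run on within the interval or on the same side. With limits leaving 0.5% of controls, 120 elements were higher and 106 lower at E15, a turn in the order of the counts, and with 5%, 563 and 837. Over all non-scrambled elements, those above the limit at E14, E15 and both were then 2.06%, 0.693% and 0.0385%, and 9.49%, 6.70% and 1.30%. By the authors' adjusted p they were 11.2%, 14.9% and 3.05%. For the E14 class the shares were 6.95%, 0.109% and 0%, then 21.3%, 10.6% and 4.99%, and 23.7%, 23.1% and 10.5%. These shares move with the threshold by construction. Of 77 named elements, none changed direction while beyond a limit. On the MAD scores 67 kept their side of the limits, with pseudocount 1 75 did, and with 0.01 or 0.5 all 77. Depth is unknown and its limit on single elements could not be given.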
